A study of Homo sapiens with 24 samples.

Results

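Retained-intron transcripts are RNA isoforms that GENCODE, the human gene annotation, lists as holding intronic sequence relative to the coding transcripts of the same gene. They were studied here in A549 cells, a lung adenocarcinoma epithelial line, of the wild-type genotype in every group. A member was any transcript of that GENCODE 29 type with a mean of at least 1 TPM (a length-corrected measure of relative transcript abundance) over the 12 libraries of an experiment, in a gene whose other transcripts together also reached a mean of at least 1 TPM. Of 27529 such transcripts listed, 5972 were members in the whole-cell experiment, in 3331 genes, and 7730 in the fractionation experiment, in 3986 genes. A further 31 and 54 reached the first minimum but not the second. All members entered the tests. The 2 sets shared 4285 transcripts, 71.8% of the first and 55.4% of the second, and together held 9417. At the threshold, TP53BP1-212 was the lowest member of the whole-cell experiment at 1.00002 TPM and HACD1-206 lay just outside at 0.99985 TPM. In the fractionation experiment TOMM7-206 was just inside at 1.00009 TPM and GIT1-204 just outside at 0.99982 TPM.

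The whole-cell experiment had 4 groups of 3 libraries, 1 from each of batches A, B and C: DMSO, compound 2 (labelled as a TAOK2 kinase inhibitor, with no dose or time stated in the labels), a control siRNA pool, and an siRNA pool against TAOK2. The title of every whole-cell library carries the word mock, and no title of the fractionation experiment does. The fractionation experiment had cytoplasmic, nuclear and total RNA from cells given the control or the TAOK2 siRNA, with 2 libraries a group, 1 from each of batches 1 and 2. Both siRNA pools were used at 30 nM with a lipid reagent, so the siRNA controls also carried transfection. TAOK2 is a protein kinase that the series places in nuclear speckles, and the study asked how it bears on RNA processing in the nucleus. RNA was selected for poly(A) tails, so unfinished transcripts without a tail were selected against. The labels do not say whether libraries of a group came from separate cultures, so p-values measure the spread between libraries, which may be technical.

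Most introns are removed while a gene is still being transcribed, and a poly(A) RNA that keeps an intron is often held in the nucleus until it is spliced or degraded. Such introns are called detained when the RNA stays nuclear; those in RNA that reaches the cytoplasm can bring in stop codons that lead to nonsense-mediated decay. Genes for SR proteins, hnRNP proteins and their kinases are known for carrying such introns, and speckles, where splicing factors and SR proteins gather, are a place where incompletely spliced RNA is found. Many annotated retained-intron transcripts are partial models that begin or stop inside an intron, and a model that stops there can also stand for RNA cleaved and polyadenylated within the intron.

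The introns kept by a few members on which the results below turn are printed first, on GRCh38 with GENCODE 29 coordinates, 5′ to 3′ on the transcribed strand. Capitals mark the first 6 bases, at the 5′ splice site, and the last 3 bases, at the 3′ splice site. The intron of RPS16-203 at chr19:39433570-39433664 (minus strand, 95 bases) and that of RPS24-210 at chr10:78037305-78037438 (plus strand, 134 bases) belong to members with large nuclear excess. The introns of EEF2-204 at chr19:3980710-3980840 (minus strand), SRA1-205 at chr5:140557273-140557427 (minus strand) and MRPS11-204 at chr15:88467783-88467907 (plus strand) belong to members with a larger share in the cytoplasm. Those of RPLP0-204 at chr12:120198740-120198853 (minus strand) and TRA2A-209 at chr7:23521841-23522131 (minus strand) belong to members that moved in opposite directions with compound 2.
RPS16-203: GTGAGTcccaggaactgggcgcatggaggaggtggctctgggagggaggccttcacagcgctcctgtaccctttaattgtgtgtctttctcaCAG
RPS24-210: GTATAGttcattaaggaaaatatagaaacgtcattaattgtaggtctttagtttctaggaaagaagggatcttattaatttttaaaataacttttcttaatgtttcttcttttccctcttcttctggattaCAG
EEF2-204: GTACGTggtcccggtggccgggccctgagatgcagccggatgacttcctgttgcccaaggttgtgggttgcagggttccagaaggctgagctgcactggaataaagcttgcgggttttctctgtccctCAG
SRA1-205: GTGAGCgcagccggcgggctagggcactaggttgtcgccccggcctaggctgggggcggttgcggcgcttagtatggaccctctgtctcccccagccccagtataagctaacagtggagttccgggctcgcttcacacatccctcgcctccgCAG
MRPS11-204: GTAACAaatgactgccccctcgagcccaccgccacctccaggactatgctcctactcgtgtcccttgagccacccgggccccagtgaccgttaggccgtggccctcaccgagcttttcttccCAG
RPLP0-204: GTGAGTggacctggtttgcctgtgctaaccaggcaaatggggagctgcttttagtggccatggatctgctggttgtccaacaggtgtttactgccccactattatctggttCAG
TRA2A-209: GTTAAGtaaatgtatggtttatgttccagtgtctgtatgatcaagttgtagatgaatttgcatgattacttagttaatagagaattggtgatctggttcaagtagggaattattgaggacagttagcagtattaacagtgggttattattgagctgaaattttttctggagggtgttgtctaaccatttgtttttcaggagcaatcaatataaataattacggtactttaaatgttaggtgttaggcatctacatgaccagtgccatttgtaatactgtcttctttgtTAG

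All 7 of these introns begin with GT and end with AG. Over the members of both experiments, 3310 distinct introns were contained whole in 2717 transcripts, counting introns of at least 30 bases. Their median length was 234 bases (quartiles 118 and 511), their median GC content was 54.3%, and 96.9% had GT and AG ends. The letters GTNAGT stood at the 5′ splice site of 22.2%, against 23.9% of the 8992 introns kept by all listed retained-intron transcripts. A length divisible by 3, which would keep the reading frame, was found in 32.0% of the introns of members and 31.9% of all those listed.

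Other members kept no whole intron but ended inside one. The last 50 bases of 3 of them are shown because their shares rose with compound 2, and capitals mark AATAAA or ATTAAA, the common forms of the polyadenylation signal. They lie at chr10:113858803-113858852 (plus strand), chr9:4285539-4285588 (minus strand) and chr21:31683995-31684044 (minus strand).
NHLRC2-202: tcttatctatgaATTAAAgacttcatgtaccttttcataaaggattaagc
GLIS3-207: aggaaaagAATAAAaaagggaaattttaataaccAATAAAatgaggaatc
SCAF4-204: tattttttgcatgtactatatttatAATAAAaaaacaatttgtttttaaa

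Searched on the transcribed strand of the last 50 bases, either hexamer was present in 1387 of the 5972 whole-cell members (23.2%) and in 31.3% of all 206534 annotated transcripts. A match describes letters only, and some annotated ends are not the ends of RNA molecules.

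In whole cells TAOK2 stood between 34.3 and 40.3 TPM in the control siRNA libraries and between 8.56 and 12.5 TPM in the TAOK2 siRNA libraries, with no overlap. In total RNA of the fractionation experiment it went from 9.70 and 5.01 TPM to 3.67 and 2.99 TPM. Keratins KRT8 and KRT18 stood at 870 to 3558 TPM in every library and the lung factor NKX2-1 was at most 0.278 TPM. Of 12 markers of leukocytes, fibroblasts and endothelium, the T cell gene CD3E was listed at 0 throughout, but others were measured: COL1A1 at 5.47 to 29.6 TPM in whole cells, and LYZ at 4.92 to 54.1, LUM at 6.26 to 44.7 and CD14 at 4.61 to 16.5 TPM in the fractions. LUM moved with the siRNA in the fractions, from a mean of 6.56 to 24.4 TPM in nuclear and from 17.3 to 43.7 TPM in total RNA, and its part in the results was not tested. The 2 experiments differed in other epithelial markers, in both directions. KRT19 was 90.8 to 287 TPM in whole cells but 0.0707 to 1.22 TPM in the fractionation libraries. KRT7 was also higher in whole cells, at 1861 to 3387 against 427 to 1354 TPM. EPCAM and CDH1 went the other way, at 3.72 to 12.2 and 4.255 to 25.7 TPM in whole cells. In the fractionation libraries they stood at 25.7 to 113 and 52.3 to 82.2 TPM. Levels were therefore not compared between the experiments. Summed mRNA encoded in mitochondrial DNA was higher in nuclear RNA (365194 to 424867 TPM) than in cytoplasmic RNA (81008 to 139131 TPM) and than in total RNA (43389 to 71345 TPM). Its part in the nuclear results was not tested. These mRNAs were the marker chosen for the cytoplasmic fraction, so that marker was higher in the other fraction. The markers chosen for the nuclear fraction, KCNQ1OT1, MALAT1, NEAT1, MEG3, TUG1 and PVT1, were not listed among the transcripts used. Neither choice of markers therefore showed the separation of the fractions.

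Shares below are the percent of the host gene's TPM held by one member. A share can rise because the member rose or because the rest of its gene fell, so TPM are given where a result turns on it. In bulk RNA, fewer cells with a transcript and less of it per cell cannot be told apart. Tests used limma on the log2 ratio of the member's TPM to that of the rest of its gene, with 0.5 TPM added to both, called log2 odds here, and a call is a Benjamini-Hochberg adjusted p under 0.05 over all transcripts of every type that met the same minimums (41006 in whole cells, 41169 in fractions).

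In whole cells the members were minor isoforms of their genes. The median share was 4.23%, 4.01% and 3.94% with DMSO (batches A, B and C), 3.93%, 3.91% and 3.77% with control siRNA, 4.09%, 4.52% and 3.90% with TAOK2 siRNA, and 3.14%, 3.69% and 2.94% with compound 2. Every compound 2 library was below every other library. A group mean of at least 1 TPM was reached by 5488 members with DMSO, 5373 with control siRNA, 5424 with TAOK2 siRNA and 3951 with compound 2, and by 3237 in every group. Together the members held 4.29%, 4.41% and 3.90% of all TPM with compound 2 and 3.95% to 4.43% in the 9 other libraries, so 1 compound 2 library lay just below the rest. Summed over the members of a gene, the median was 7.37% to 9.34% of the gene. Members made up most of the gene's TPM in 3.45% to 4.11% of host genes in the 9 other libraries and in 4.83% to 5.73% with compound 2.

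A few members were abundant. NPM1-210, from the gene of the nucleolar protein nucleophosmin, had 1767 TPM ± 31.2 (SD, n = 3) with DMSO, and its share of 43.3% to 49.5% overlapped between all 4 whole-cell groups. In the fractionation experiment the same transcript held 37.7% to 52.0% of its gene in every batch 1 library and 0.23% to 0.897% in every batch 2 library, so its share there went with the batch. RPL4-203, of a ribosomal protein of the large subunit, had 1646 TPM ± 96.8 (SD, n = 3) with DMSO and a share of 44.9% to 48.1% in all 12 libraries. RPL14-208 was the main isoform of its ribosomal protein gene at 88.6%, 90.8% and 90.1% with DMSO, and RAB21-202, from the gene of an endosomal GTPase, held 83.6% to 85.2% in every whole-cell library. These models share exons with other isoforms of their genes, and how the reads were divided between them was not tested. Exons of 572 whole-cell members (9.58%) overlap an exon of another gene on the same strand, and those of 901 (15.1%) on the other strand. In the fractionation experiment it was 713 (9.22%) and 1051 (13.6%). Such overlaps are named below for only some of the members concerned.

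**Figure D1:**
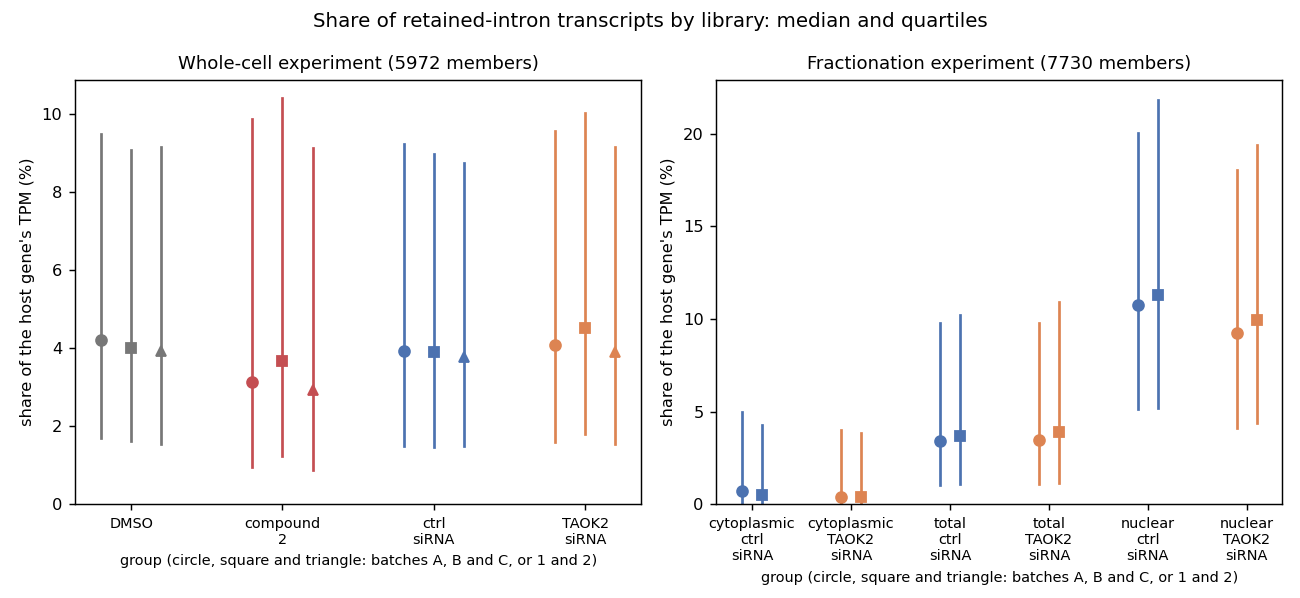
Share of the host gene's TPM (%) held by retained-intron transcripts in each library, as the median (symbol) and quartiles (line) over 5972 members in whole cells (left) and 7730 in the fractions (right); symbols mark batches. Nuclear control libraries had medians of 10.7% and 11.3%, cytoplasmic control libraries 0.734% and 0.519%.

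Retained-intron transcripts had far larger shares in nuclear than in cytoplasmic RNA. With control siRNA the median share was 10.7% and 11.3% in nuclear RNA (batches 1 and 2), 3.41% and 3.67% in total RNA, and 0.734% and 0.519% in cytoplasmic RNA, with no overlap. They held 7.75% and 8.66% of all TPM in nuclear RNA against 3.77% and 3.46% in cytoplasmic RNA. Between 16.2% and 33.0% of members were listed at 0 in a cytoplasmic library, against 0.789% to 1.79% in a nuclear one. Summed over each gene, members held a median of 24.1% and 26.7% of nuclear RNA and 3.09% and 2.56% of cytoplasmic RNA with control siRNA.

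Of the 7730 members, 4419 had a higher share in nuclear than in cytoplasmic RNA and 198 a lower one by limma, with a median log2 odds difference of 2.05. Over all 41169 transcripts 36.1% were called, 21.6% higher and 14.4% lower. By contrast 2131 of 24174 protein-coding transcripts were higher and 4913 lower, and 1791 of 5898 processed transcripts (noncoding models of other kinds) were higher and 441 lower. Of transcripts annotated for nonsense-mediated decay, 545 of 3239 were higher and 366 lower. A mean of at least 1 TPM over libraries that include nuclear RNA favours nuclear transcripts: 5489 members were under 1 TPM in cytoplasmic and at 1 TPM or more in nuclear control RNA. The count is therefore given again for members chosen in the whole-cell experiment alone. Of those 5972, 5930 were measured in the fractions, and 2942 were higher and 267 lower in nuclear RNA, 49.6% and 4.50%, where 29.9% of all transcripts were called, 14% higher and 15.9% lower. Their median difference was 1.60, and 4271 were higher in both batches. The size of the median for the fractionation members depended on the TPM added to both terms, at 3.29 with 0.1 TPM and 1.49 with 1 TPM. With TAOK2 siRNA, 4071 members were higher and 166 lower in nuclear RNA, where 30.2% of all transcripts were called, 19.4% higher and 10.7% lower.

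**Figure D2:**
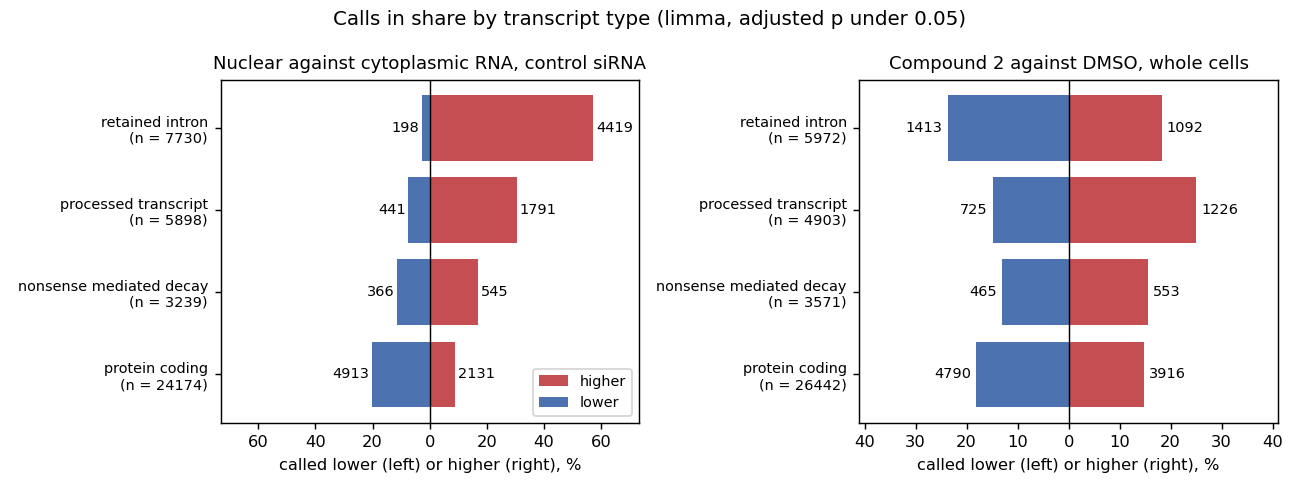
Percent of transcripts of each GENCODE type called lower (left of 0) or higher (right of 0) in share by limma, with the number called beside each bar. Left, nuclear against cytoplasmic RNA with control siRNA, where 4419 retained-intron transcripts were higher and 198 lower; right, compound 2 against DMSO, where 1092 were higher and 1413 lower.

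Within the 7730 members of the fractionation experiment, the nuclear excess was larger for those with more intronic sequence. The quartile groups, gene lists and rankings of nuclear against cytoplasmic RNA that follow use these members, whose choice favours nuclear transcripts. They were not counted again for members chosen in whole cells, so they are a description. In the quartile group of members with the least sequence outside coding-transcript exons (up to 19.3% of bases) the median share was 12.6% in nuclear and 4.62% in cytoplasmic control RNA, and 546 members were higher and 101 lower of 1933. In the quartile group with the most (54.2% or more) the nuclear median was 10.4% but the cytoplasmic one 0.343%, and 1427 were higher and 38 lower of 1933. The median difference was 0.70 in the first and 2.71 in the last. The 237 members with neither an intronic end nor a whole intron had a median difference of 0.76, with 87 higher and 22 lower.

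The difference was larger for members with few exons. Members with 2 exons had a median difference of 2.45 (1599 higher and 36 lower of 2431), and those with 6 or more exons 1.36 (665 higher and 65 lower of 1371). Across quartile groups of transcript length the median stayed between 1.97 and 2.09, while calls in both directions were more frequent among longer members: 1031 were higher and 31 lower of 1933 in the shortest group, and 1203 and 67 of 1933 in the longest. Among members that kept 1 whole intron, the median difference was 1.61 in the quartile group with the shortest introns (32 to 116 bases) and 2.68 in the quartile group with the longest (438 bases or more). By the GC content of that intron it was 2.63 in the lowest quartile group (up to 40.2%) and 1.27 in the highest (59.5% or more), where the median cytoplasmic share was 2.34% against 0.362%. These features overlap in the same transcripts, were not separated, and were compared by counts and medians only.

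Ribosomal protein genes, whose mRNAs are short and very abundant, gave 8 of the 10 largest nuclear rises in share among members with a mean of at least 5 TPM. Of 176 members in 66 of these genes, 135 were higher and 2 lower in nuclear RNA, with a median difference of 4.78 and a median share of 2.59% in nuclear against 0.0481% in cytoplasmic control RNA. RPS16-206 (chr19:39433223-39435948, minus strand, 1 whole intron), of a small-subunit protein, held 16.6% and 21.3% of its gene in nuclear RNA, 0.593% and 0.440% in total RNA and 0.0964% and 0.105% in cytoplasmic RNA with control siRNA. Its difference was 7.61 (SE 0.37, limma adjusted p = 3.69e-05). Its own TPM were 121 and 124 in nuclear against 2.98 and 2.40 in cytoplasmic RNA, while the rest of the gene was at 605 and 460 TPM in the nucleus and 3086 and 2282 TPM in the cytoplasm. Thus the member was higher and the rest of its gene lower in nuclear RNA. The next 2 members keep the short introns printed above. RPS16-203, with an intron of 95 bases, went from 0.00282% and 0.0123% in the cytoplasm to 4.72% and 5.99% in the nucleus. RPS24-210, with its intron of 134 bases and only 27.6% GC, held 3.997% and 4.59% of nuclear and 0.0192% and 0.00438% of cytoplasmic RNA. Ribosomal protein genes have many processed pseudogenes, with which exonic reads can be shared, so the level of the rest of these genes is uncertain.

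Other genes with large nuclear shares were of several kinds. PDCD5-205 (chr19:32584869-32587425, plus strand), of a gene linked to programmed cell death, held 35.7% and 42.5% of nuclear RNA and 0% and 0.193% of cytoplasmic RNA, the largest difference among the members named by the rule at 8.03 (SE 0.57). S100A6-204, of a calcium-binding protein, held 13.5% and 12.3% against 0.0615% and 0.0532%. Nuclear-encoded genes of the respiratory chain had 58 members higher and 2 lower of 81, with a median of 3.89. Genes of the proteasome and of ubiquitin conjugation had 116 higher and 1 lower of 154, with a median of 3.02.

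Genes of RNA processing itself had smaller median differences in share than the 3 lists above, and had members with large nuclear shares. SR protein genes and their regulators had 37 members higher and 3 lower of 74 (median 1.56), hnRNP and other splicing regulators 77 higher and 0 lower of 126 (2.29), and core spliceosome genes 57 higher and 3 lower of 90 (1.94). Genes of 3′ end processing had 27 higher and 0 lower of 35 (2.57). Of 123 members in genes chosen because they are known for detained introns, 63 were higher and 3 lower, with a median of 1.55 against 2.05 for all members. In level, log2(TPM + 1), the order was another: the median nuclear minus cytoplasmic difference was 3.39 for hnRNP and other splicing regulators, 3.24 for genes known for detained introns and 2.77 for SR protein genes, against 2.30 for proteasome and ubiquitin conjugation, 2.29 for ribosomal protein and 2.26 for respiratory chain genes and 2.13 for all members. SRSF9-204 (chr12:120461711-120464943, minus strand), of an SR splicing factor, held 33.4% and 36.8% of its gene in nuclear and 0.412% and 0.509% in cytoplasmic control RNA. DDX5-215 (chr17:64499616-64506289, minus strand), of an RNA helicase, held 40.4% and 41.4% in the nucleus, 12.8% and 17.7% in total RNA and 2.07% and 2.12% in the cytoplasm, at 368 and 429 TPM against 5.52 and 6.73 TPM. TRA2A-209, with the printed AT-rich intron of a gene for an SR-like splicing activator, held 34.3% and 42.1% against 2.52% and 2.62%. In all 3 genes the nuclear and cytoplasmic libraries did not overlap. The exons of SRSF9-204 overlap those of GATC on the other strand and those of DDX5-215 overlap microRNA genes, and the labels do not state whether reads were counted by strand.

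Zinc finger genes, which encode DNA-binding proteins, had high nuclear shares and a modest difference: 59 of 102 members were higher and 3 lower, the median share was 17.0% in nuclear and 1.74% in cytoplasmic RNA, and the median difference was 1.64. Mitosis genes had 36 higher and 0 lower of 57, with median shares of 18.4% and 1.29%. DNA replication and repair genes had 41 higher and 0 lower of 84, with 12.6% and 1.41%. Of 4 members in genes of long noncoding RNA, 3 were higher.

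In the remaining lists most called members were likewise higher in nuclear RNA. Translation factors had 69 higher and 1 lower of 115 (median 2.66), tRNA synthetases and amino acid response genes 45 and 1 of 68 (2.80), and the mitochondrial ribosome 20 and 1 of 32 (3.00). EIF4A2-219, of a translation initiation helicase, keeps 7 whole introns and held 13.5% and 13.6% of nuclear against 0.253% and 0.195% of cytoplasmic control RNA; its exons overlap small nucleolar RNA genes on the same strand. Genes of mRNA export and the exon junction complex had 36 higher and 1 lower of 54 (2.06), of the nuclear exosome and RNA decay 26 and 0 of 40 (2.53), of chromatin 68 and 4 of 119 (1.99), and RNA helicases 42 and 3 of 70 (1.93). Kinases of SR proteins and of transcription, with cyclins, had 18 and 4 of 45 (1.23). CCNL2-204, of cyclin L2, held 49.3% and 49.0% of nuclear and 14.4% and 8.22% of cytoplasmic RNA, and HNRNPA1-211, of an abundant splicing repressor, 7.96% and 5.12% against 0.00902% and 0.00453%. None of these 3 examples overlapped between the fractions.

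The 198 members with a larger share in the cytoplasm were less intronic. Sequence outside coding-transcript exons made up a median of 18.4% of their bases, against 44.2% for the 4419 nuclear ones. Only 39 whole introns were kept among them, with a median of 145 bases and 63.2% GC, against 1807 introns with medians of 275 bases and 49.1% GC for the nuclear members. WSB1-212 (chr17:27303320-27310172, plus strand), of a substrate receptor of a ubiquitin ligase, held 41.2% and 34.5% of its gene in cytoplasmic, 37.4% and 24.6% in total and 2.69% and 2.63% in nuclear control RNA. Its own TPM were 10.5 and 11.4 in the cytoplasm and 3.92 and 4.87 in the nucleus, and its difference was -4.35 (SE 0.36, limma adjusted p = 7.43e-05). SRA1-205, of the gene for a steroid receptor coactivator that is known both as an RNA and as a protein, held 62.5% and 80.7% of cytoplasmic RNA and 0% and 6.54% of nuclear RNA. ATG12-209, of the ubiquitin-like autophagy protein ATG12, held 26.3% in both cytoplasmic libraries and was listed at 0 in both nuclear ones. CPT1C-222, of a carnitine palmitoyltransferase, was the main isoform in both fractions, at 97.9% and 98.1% of cytoplasmic and 76.7% and 66.0% of nuclear RNA.

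Some of these differences depended on which other transcripts of the gene were counted. MRPS11-204, with the 125-base intron of a mitochondrial ribosomal protein gene printed above, held 71.7% and 65.6% of cytoplasmic and 27.9% and 11.9% of nuclear RNA. Set against protein-coding transcripts only, its difference was -0.11 (limma adjusted p = 0.894). NAA10-207, of the catalytic subunit of an N-terminal acetyltransferase, went from 40.8% and 49.7% to 7.30% and 7.70%, but by -0.57 (adjusted p = 0.471) against coding transcripts only. The exons of NAA10-207 overlap those of ARHGAP4 on the same strand. EEF2-204, of translation elongation factor EEF2, held 12.9% and 14.7% in the cytoplasm and was listed at 0 in both nuclear libraries (limma adjusted p = 0.0129). The call was lost, at adjusted p of 0.0531 to 0.0733, without either cytoplasmic control library or without nuclear control replicate 1.

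**Figure D3:**
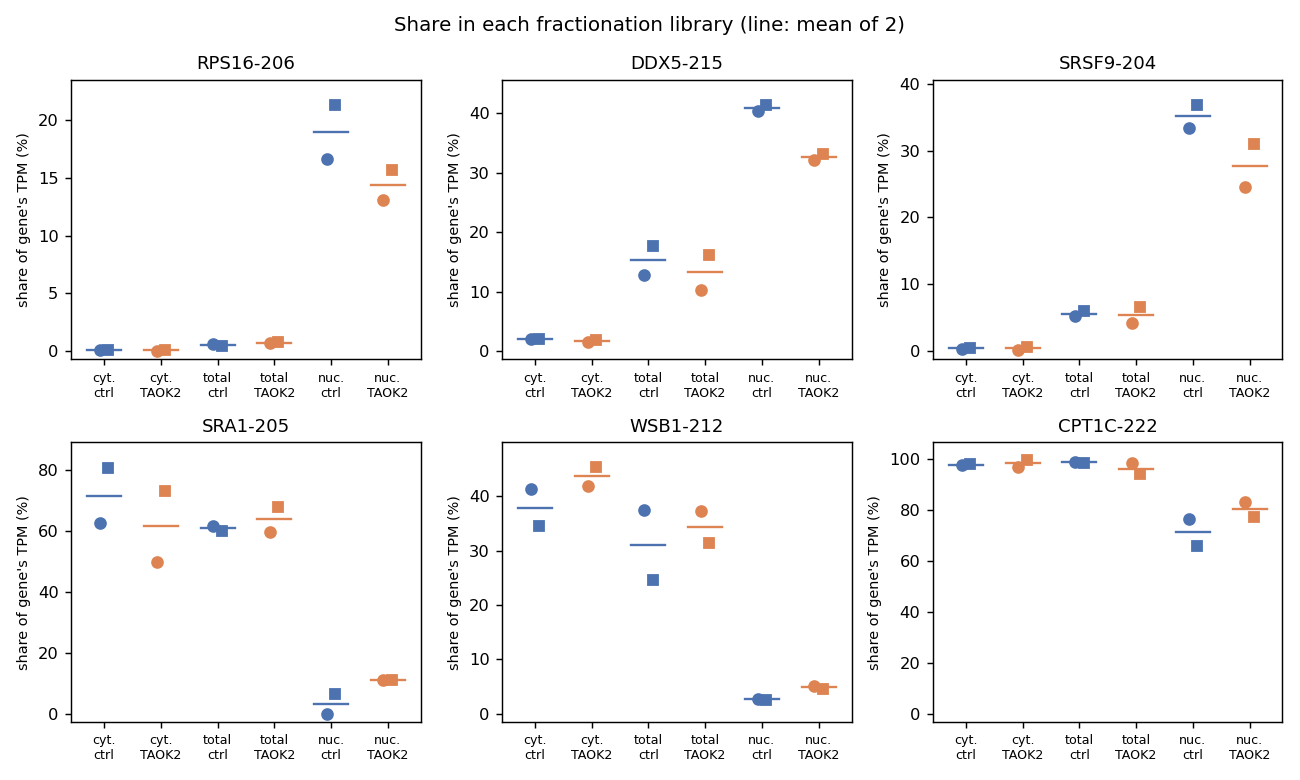
Share (%) of 6 members in each fractionation library, with circles for batch 1, squares for batch 2 and a line at the mean of 2. RPS16-206, DDX5-215 and SRSF9-204 were high in nuclear libraries (33.4% and 36.8% for SRSF9-204 with control siRNA) and low in cytoplasmic ones (0.412% and 0.509%); SRA1-205, WSB1-212 and CPT1C-222 were lower in nuclear libraries.

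Compound 2 moved retained-intron transcripts in both directions. Against DMSO, 1092 of 5972 members rose in share and 1413 fell by limma, where 34.7% of all 41006 transcripts were called, 16.6% higher and 18.1% lower. The median log2 odds change was -0.11 over the members and -0.0030 over all transcripts. Which direction had more calls depended on the TPM added: with 1 TPM 1265 rose and 1209 fell at a median of -0.0313, and with 0.1 TPM 949 rose and 1614 fell at -0.22. Without compound 2 replicate 3 the median was -0.0519. Processed transcripts had 1226 of 4903 higher and 725 lower, and protein-coding ones 3916 of 26442 higher and 4790 lower. In level, log2(TPM + 1), 927 members rose and 2475 fell, where 51.3% of all transcripts were called (12.4% higher and 38.9% lower) and the median of all transcripts moved by -0.28. With each library centred on its median, the split was 1402 higher and 1805 lower. The median share change within batches A, B and C was -0.14, 0.0067 and -0.17, and with a minimum mean of 5 TPM 203 members rose, 224 fell and the median was -0.01. Of the 1092 members that rose in share, 683 also rose in level and 98 fell. Of the 1413 that fell in share, 1306 fell in level and 4 rose.

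The direction went with which end of the transcript lay inside an intron. Members that only ended in an intron rose more often than they fell, 571 against 387 of 2277 (25.1% and 17.0%), and their median share went from 4.37% with DMSO to 4.83%. Those that only began in an intron rose in 248 and fell in 582 of 1879 (13.2% and 31.0%), and their median share went from 3.83% to 2.38%. Members with both ends in introns had 98 higher and 112 lower of 434, and those with neither 175 higher and 332 lower of 1382. For the 7651 measured members chosen in the fractionation experiment, where 29.5% of all transcripts were called (20.5% higher and 8.99% lower), 443 of 2386 that only ended in an intron rose and 397 fell (18.6% and 16.6%). Their median share did not rise: it was 3.07% with DMSO and 2.39% with compound 2. The median change in log2 odds was -0.021, with 733 positive and 736 negative in every batch. Of 3223 that only began in an intron, 410 rose and 727 fell (12.7% and 22.6%). These were given because 407 whole-cell members were under 1 TPM with DMSO and at 1 TPM or more with compound 2, so that the choice of members favours some rises.

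Among these classes, intronic 3′ ends with a polyadenylation hexamer had the highest percentage of rises. Of 237 whole-cell members that only ended in an intron and had AATAAA or ATTAAA in the last 50 bases, 106 rose and 22 fell (44.7% and 9.28%), and the median share went from 4.89% with DMSO to 8.42% with compound 2. Without the hexamer, 465 of 2040 rose and 365 fell (22.8% and 17.9%). Where the transcript ended elsewhere, falls were more frequent than rises with the hexamer (157 of 1150 higher and 365 lower, 13.7% and 31.7%) and without it (364 of 2545 and 661, 14.3% and 26.0%). Among members chosen in the fractionation experiment the intronic ends with a hexamer had 78 of 250 higher and 24 lower (31.2% and 9.6%). Over all transcripts in that fit, 20.5% were higher and 8.99% lower. The median share of these 250 was 4.499% with DMSO and 4.185% with compound 2. Their median change in log2 odds was 0.24, with 109 positive and 56 negative in every batch.

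The counts also differed by position along the gene. In the quartile group of members whose 3′ end lay nearest the gene's start, 390 rose and 197 fell of 1493, then 312 and 297, then 216 and 411, and in the quartile group nearest the gene's end 174 rose and 508 fell. By host gene span, 155 rose and 308 fell in the quartile group of shortest genes (792 to 11490 bases), and 442 rose and 398 fell in the longest (54109 bases or more). Members that kept whole introns fell more often: 166 rose and 351 fell of 1394 with 1 whole intron and 59 and 151 of 519 with 2 or more, against 867 and 911 of 4059 with none. By length, the longest quartile group (1710 bases or more) had 289 higher and 476 lower, and the shortest 256 and 281. Among members that kept 1 whole intron, 11.2% rose and 14.6% fell in the quartile group with the shortest introns, and 16% and 36.4% in that with the longest. By exon number, 19.3% rose and 24.1% fell for 2 exons and 17.3% and 24.4% for 6 or more. These lay near the 18.3% higher and 23.7% lower over all members, while the 114 members with 1 exon had 26.3% and 35.1%. Over all 41006 transcripts 16.6% rose and 18.1% fell.

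**Figure D4:**
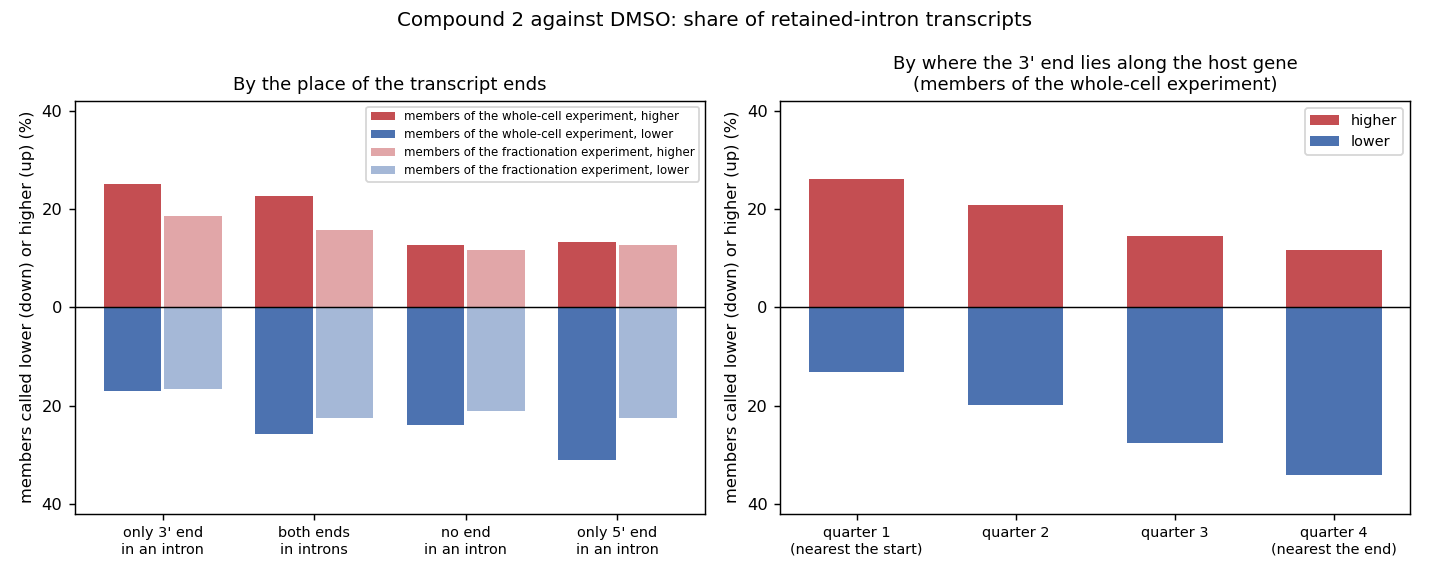
Percent of retained-intron transcripts called higher (up) or lower (down) in share with compound 2 by limma. Left, by which transcript end lies in an intron, for members of each experiment; right, by quartile group of the 3′ end's place along the host gene, where 390 rose and 197 fell of 1493 nearest the start and 174 rose and 508 fell nearest the end.

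Of the 10 largest rises among members with a mean of at least 5 TPM, 9 ended in an intron. Over all 5972 members, 2277 had only their 3′ end in an intron and 434 had both ends there. A minimum mean over libraries that include compound 2 favours members that rose, so this ranking is a description. MTCL1-212 (chr18:8717376-8777977, plus strand), of a microtubule crosslinking factor, held 0.388%, 0.153% and 0.354% of its gene with DMSO and 50.6%, 49.9% and 55.9% with compound 2. Its TPM went from 0.143 to 0.348 up to 27.3 to 32.0, while the rest of the gene went from 87.4 to 93.1 down to 25 to 32.1. The change was 7.01 (SE 0.33, limma adjusted p = 9.97e-08), and the groups were far apart in every batch. NHLRC2-202 (chr10:113854824-113858852, plus strand), a model of 2 exons in a gene for an NHL repeat protein, held 24.3%, 21.1% and 16.7% with DMSO and 83.5%, 84.0% and 79.7% with compound 2. Its TPM rose from 3.42, 2.59 and 1.74 to 21.3, 26.7 and 17.0, and the rest of the gene went from 10.6, 9.66 and 8.72 to 4.22, 5.09 and 4.32. Its printed end has ATTAAA with 32 bases after it. GLIS3-207 (chr9:4285539-4299916, minus strand), of a zinc finger transcription factor, went from 2.51%, 1.91% and 2.19% to 53.6%, 47.4% and 49.9%, at 0.855 to 1.38 TPM with DMSO and 16.5 to 27.2 TPM with compound 2.

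The other large rises came from genes of unrelated roles. TXNRD1-210, of thioredoxin reductase, went from 0.284%, 0.213% and 0.264% to 11.4%, 9.97% and 8.50%. CEMIP2-211, of a cell-surface protein of hyaluronan breakdown, went from 4.78%, 5.55% and 4.61% to 71.2%, 68.1% and 64.9%. In both, no compound 2 library came near a DMSO library. NSD2-218, of a histone methyltransferase, went from 1.78%, 1.61% and 1.72% to 21.1%, 27.8% and 29.3%. Here the compound 2 libraries also lay above every DMSO library. FOXK2-204, RBBP6-211 and SLC4A7-204 also rose, with changes of 3.83 to 4.07.

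Among the falls, RPLP0-204 (chr12:120198556-120200864, minus strand), which keeps the printed intron of 114 bases of a ribosomal stalk protein gene, held 0.262%, 0.366% and 0.292% with DMSO and was at or next to 0 in all 3 compound 2 libraries (limma adjusted p = 1.05e-07). CKAP5-212, of a microtubule polymerase gene, held 9.80%, 15.6% and 10.3% with DMSO and 0%, 0.148% and 0% with compound 2. SYNE1-208 (chr6:152121780-152318344, minus strand), 61 exons of the gene for the nuclear envelope protein nesprin-1, went from 30.9%, 30.7% and 30.8% to 4.27%, 2.20% and 4.90%, a change of -3.37 (SE 0.25). In each of these every DMSO library lay above those with compound 2. KRT7-205, in a keratin gene, went from 0.964%, 0.895% and 0.765% to 0.0939%, 0.136% and 0.102%. MAX-209, of the partner of MYC, went from 6.99%, 13.9% and 17.9% to 0.677%, 0% and 0%. USB1-213, of an enzyme that trims U6 RNA, went from 10.2%, 10.7% and 8.96% to 0%, 1.80% and 0%, and GPI-212, of a glycolytic isomerase, from 5.80%, 2.94% and 5.56% to 0.601%, 0.694% and 0.591%. These groups did not overlap either. RPL4-210 fell by 2.99 (limma adjusted p = 0.0268), and the call was lost, at adjusted p of 0.055 to 0.0675, without any 1 of the DMSO libraries.

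Members of one gene could move apart. In RNPS1, which encodes a splicing activator of the exon junction complex, RNPS1-226 (chr16:2262208-2268114, minus strand) went from 28.9%, 25.2% and 28.0% with DMSO to 4.14%, 6.64% and 4.37%, and RNPS1-221 (chr16:2265503-2267328) from 2.05%, 1.77% and 2.23% to 17.6%, 15.1% and 16.9%. The changes were -2.81 (SE 0.19) and 3.10 (SE 0.19), and both passed in limma. In CHD9, of a chromatin remodeler, CHD9-209 went from 2.21%, 2.14% and 0.848% to 24.9%, 33.2% and 23.2%, while CHD9-201 held 9.85%, 11.2% and 8.98% with DMSO and was listed at 0 with compound 2. In DDX3X, of an RNA helicase, DDX3X-258 went from 1.35%, 1.39% and 1.20% to 5.65%, 5.90% and 6.14%, and DDX3X-245 from 0.851%, 1.02% and 0.764% to 0 or next to 0.

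**Figure D5:**
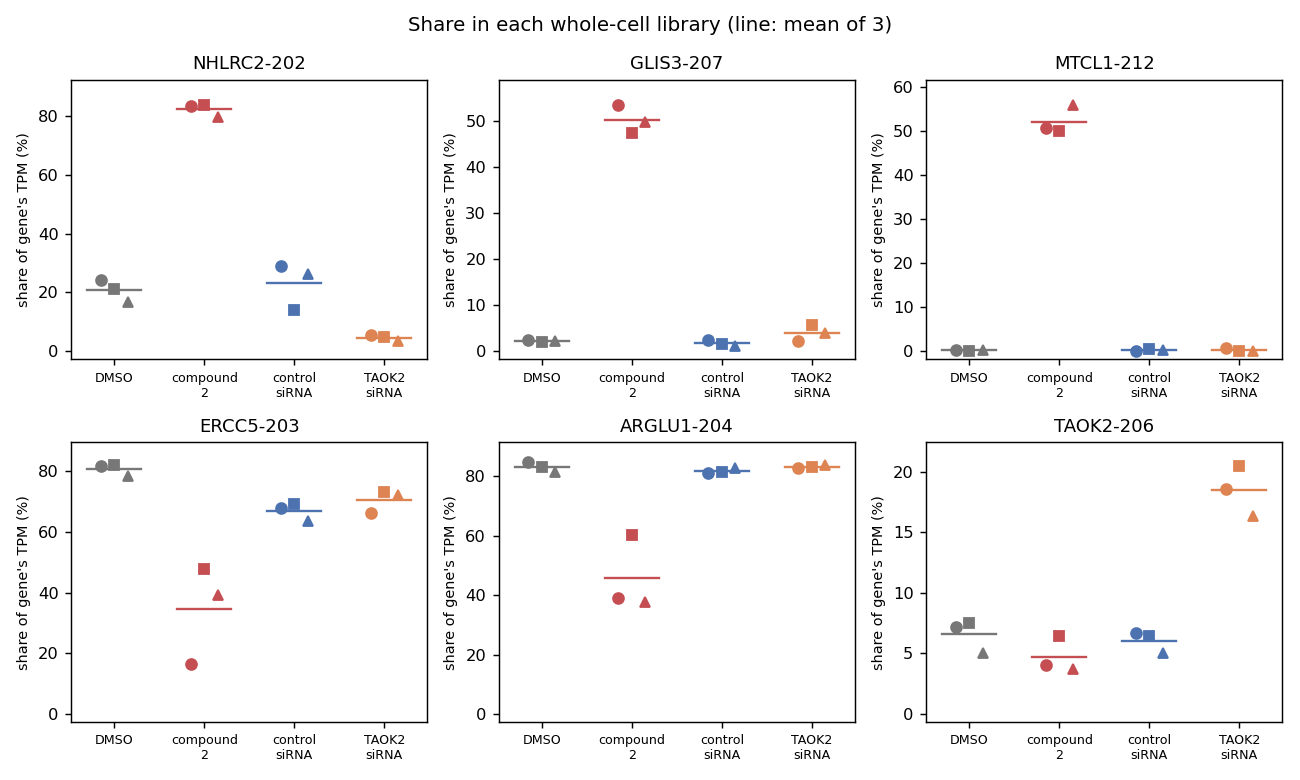
Share (%) of 6 members in each whole-cell library, with circles, squares and triangles for batches A, B and C and a line at the mean of 3. NHLRC2-202, GLIS3-207 and MTCL1-212 were high with compound 2 (79.7% to 84.0% for NHLRC2-202), ERCC5-203 and ARGLU1-204 were low, and TAOK2-206 was high with TAOK2 siRNA (16.3% to 20.5%).

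SR protein genes and their regulators had 21 members higher and 9 lower of 59 with compound 2 (35.6% and 15.3%), a median change of 0.36. The hnRNP and other splicing regulators had 28 and 20 of 104 (26.9% and 19.2%), a median of 0.15. Beside these and the lists below stand 18.3% higher and 23.7% lower over all members, and 16.6% and 18.1% over all 41006 transcripts. SCAF4-204 (chr21:31683995-31701823, minus strand), of an SR-related protein that acts against early termination, went from 2.89%, 2.83% and 1.98% to 28.9%, 29.8% and 28.7%, at 0.327 to 0.547 TPM with DMSO and 9.45 to 10.4 TPM with compound 2. Its printed end has AATAAA with 19 bases after it. SRSF10-213, of an SR protein, went from 6.01%, 5.63% and 5.45% to 18.0%, 18.5% and 17.2%, and TRA2A-209 from 7.31%, 8.25% and 6.35% to 18.6%, 21.3% and 19.1%. SCAF11-206, TIAL1-212 and RBM39-225, of further splicing regulators, also rose, to means of 16.9%, 15.2% and 7.93%. SON-216, of a large speckle protein, went the other way, from 6.36%, 6.18% and 3.48% to 0.26%, 0.371% and 0%. Its exons overlap those of DONSON on the other strand.

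Kinases of SR proteins and of transcription, with their cyclins, had 9 members higher and 12 lower of 34 (median -0.33), and the list of genes known for detained introns 21 higher and 23 lower of 96 (median 0.15). The cyclin L genes divided: CCNL2-204 went from 23.6%, 26.5% and 23.0% to 6.73%, 10.8% and 8.45%, and CCNL1-214 from 5.37%, 6.36% and 5.27% to 15%, 15.6% and 17.7%. ARGLU1-204 (chr13:106543327-106568137, minus strand), of a splicing cofactor known for its detained intron, held 84.8%, 83.0% and 81.6% with DMSO and 38.9%, 60.4% and 37.8% with compound 2. Its own TPM were 37.4 to 42.5 and 35.9 to 52.1, while the rest of the gene went from between 7.64 and 8.45 TPM to between 34.2 and 60.6 TPM. The change in level was 0.05 (limma adjusted p = 0.756), so the share moved with the other transcripts. In fractions with control siRNA the same member held 92.5% and 94.7% of nuclear and 15.6% and 22.6% of cytoplasmic RNA.

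Genes of DNA replication and repair had 6 members higher and 21 lower of 60, and their median share was 4.54% with DMSO and 2.45% with compound 2. FANCI-212 and FANCL-209, of the Fanconi anaemia crosslink repair pathway, went from 5.85%, 5.42% and 4.58% to 0.515%, 0.669% and 0.555%, and from 21.7%, 21.0% and 18.8% to 5.93%, 5.26% and 6.13%. LIG1-215, of a replicative DNA ligase, went from 2.34%, 4.50% and 3.45% to 0.238%, 0% and 0.21%. ERCC5-203, of a nucleotide excision repair nuclease, went from 81.7%, 82.0% and 78.3% to 16.4%, 48.0% and 39.3%. FANCI-212 overlaps POLG on the other strand, and ERCC5-203 shares exons with a readthrough gene on its own strand. Zinc finger genes had 26 members higher and 12 lower of 84, with a median change of 0.18 in share odds but -0.66 in level, and their median share was 10.2% with DMSO and 7.95% with compound 2. ZKSCAN1-204 went from 11.2%, 9.64% and 10.4% to 63.8%, 51.0% and 56.2%, and ZNF654-202 from 11.3%, 6.66% and 13.8% to 74.4%, 61.6% and 73.3%.

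Nuclear-encoded respiratory chain genes had 7 members higher and 20 lower of 64. COX4I1-215, of a cytochrome c oxidase subunit, went from 0.42%, 0.372% and 0.351% to 0%, 0.0075% and 0%, whereas SDHA-216, SDHA-205 and SDHA-218, of a succinate dehydrogenase subunit, rose to means of 6.21%, 3.13% and 8.87% from 0.300%, 0.0588% and 0.993%. Genes of 3′ end processing had 6 higher and 2 lower of 26, with median shares of 1.52% and 3.11%; NUDT21-202, of a cleavage factor, went from 4.63%, 4.20% and 3.42% to 12.6%, 13.4% and 10.9%. In the chromatin list 35 rose and 23 fell of 106, among mitosis genes 13 and 18 of 63, and KIF18A-204, of a kinesin motor, went from 3.05%, 3.11% and 1.78% to 31.3%, 41.3% and 29.2%. Ribosomal protein genes had 20 higher and 17 lower of 165 (12.1% and 10.3%) at a median share of 0.289% with DMSO and 0.319% with compound 2. Translation factors had 12 and 6 of 90 (13.3% and 6.67%) and the core spliceosome 7 and 10 of 69 (10.1% and 14.5%). Export and exon junction genes had 9 and 11 of 54 (16.7% and 20.4%) and RNA decay genes 4 and 7 of 25 (16% and 28%). RNA helicases had 14 and 18 of 70 (20% and 25.7%). The tRNA synthetases and amino acid response genes had 11 and 14 of 54 (20.4% and 25.9%) and the mitochondrial ribosome 1 and 4 of 30 (3.33% and 13.3%). Proteasome and ubiquitin conjugation genes had 20 and 16 of 101 (19.8% and 15.8%). Several of these percentages lay near or below the 16.6% higher and 18.1% lower over all 41006 transcripts. In the helicase list DHX29-202, of a helicase of translation initiation, went from 26.3%, 21.4% and 25.4% to 55.3%, 54.3% and 46.1%, and among ribosomal protein genes RPL5-203 from 0.307%, 0.306% and 0.210% to 2.14%, 1.92% and 1.49%.

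Members that fell with compound 2 had the larger nuclear differences. Among the 4285 transcripts that were members in both experiments, which share no library, 70.5% of the 1143 that fell with compound 2 were called higher in nuclear RNA, with a median nuclear difference of 2.70. Of the 666 that rose, 55.7% were called higher in nuclear RNA, with a median of 1.81, and of the 2476 not called 55.0%, with 2.03. Over all 4285 it was 59.2%, with a median of 2.18, and 21.6% of all 41169 transcripts were called higher in nuclear RNA. Seen the other way, 14.6% of the 2538 nuclear members rose with compound 2 and 31.8% fell, and of the 121 cytoplasmic members 37.2% rose and 11.6% fell. Over all 41006 transcripts 16.6% rose and 18.1% fell, so the rises among nuclear members lay near that background. These shares are a description, with no test.

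TAOK2 siRNA changed few retained-intron transcripts by the test. In whole cells 2 of 5972 members rose in share and 1 fell against control siRNA by limma, where 0.0878% of all transcripts were called, 0.0488% higher and 0.039% lower. At an unadjusted p under 0.05, 475 were higher and 178 lower, where 2194 of all 41006 transcripts were higher and 2161 lower. With the batch as a replicate block only TAOK2-206 remained called. The signs leaned upward, with 3650 members positive and 2322 negative and a median of 0.0827 against 0.0072 over all transcripts, and within batches A, B and C the median was 0.0475, 0.164 and 0.0413. Without TAOK2 siRNA replicate 2 it was 0.0451. The 2 kinds of control also differed: control siRNA against DMSO had 2490 members positive and 3482 negative. The median there was -0.054, against -0.0063 over all transcripts. The part of low control siRNA libraries in the upward lean was not tested. In level, 40 members rose and 57 fell, where 5.2% of all transcripts were called, 1.62% higher and 3.58% lower.

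The clearest change was in TAOK2 itself. TAOK2-206 (chr16:29989910-29991710, plus strand, 1721 bases), which begins in an intron, held 6.65%, 6.40% and 5.04% of the gene in the control siRNA libraries. After the knockdown it held 18.6%, 20.5% and 16.3%, above every control library. Its TPM went from 2.68, 2.45 and 1.73 to 1.97, 2.57 and 1.40, while the rest of the gene went from 37.6, 35.8 and 32.6 TPM to 8.62, 9.95 and 7.16 TPM. The share differed by 1.81 (SE 0.19, limma adjusted p = 0.00587; 0.054 with only the 2 groups compared in the fit), and the level by -0.15 (adjusted p = 0.785). In the fractions with control siRNA it held 34.3% and 47.9% of nuclear TAOK2 RNA, 8.20% and 11.1% of total and 0.509% and 0.637% of cytoplasmic RNA. With TAOK2 siRNA the shares were 46.4% and 52.4%, 30.4% and 35.3%, and 3.05% and 0%, and none of these 3 differences passed in limma (adjusted p of 0.933 or more). With compound 2, where the rest of TAOK2 stood at 20.6, 28.8 and 19.7 TPM against 36.9, 37.5 and 35.6 TPM with DMSO, the member's share was 4.06%, 6.42% and 3.74% against 7.15%, 7.48% and 5.08% (limma adjusted p = 0.399).

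CCDC43-205 (chr17:44681731-44689745, minus strand), of a coiled-coil protein gene and named after its values were seen since its mean is under 5 TPM, held 4.25%, 5.61% and 5.09% with control and 19.5%, 12.2% and 10.6% with TAOK2 siRNA. The rest of that gene went from 42.4, 46.5 and 45.9 TPM to 8.51, 9.79 and 9.49 TPM, and the member itself from 1.88, 2.76 and 2.47 TPM to 2.06, 1.35 and 1.13 TPM. The share differed by 1.69 (SE 0.26, limma adjusted p = 0.0469; 0.0881 with a replicate block). NHLRC2-202 went down, from 29.1%, 14.1% and 26.4% with control siRNA to 5.65%, 4.97% and 3.34%, with no overlap, whereas compound 2 raised it. Its difference was -1.80 (SE 0.27, limma adjusted p = 0.0442; 0.0609 with a replicate block). Both calls were lost, at adjusted p of 0.109 to 0.157, without any 1 of the TAOK2 siRNA libraries and without control siRNA replicate 1 or 3, and that of CCDC43-205 also without replicate 2. The exons of CCDC43-205 overlap MEIOC on the other strand. In the nuclear fraction NHLRC2-202, which is no member of the fractionation experiment, held 4.44% and 1.33% with control siRNA and was listed at 0 with TAOK2 siRNA.

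The effects of compound 2 and of the siRNA, each against its own control, differed for 1814 members by limma, 727 in the positive and 1087 in the negative direction, where 24.9% of all transcripts were called, 11.8% positive and 13.1% negative. NHLRC2-202, chosen for its calls in both comparisons, had a difference of 5.67 (SE 0.38), given as a description. Control siRNA against DMSO gave 0 calls among members by limma, where 0.00488% of all transcripts were called. At an unadjusted p under 0.05, 125 of 5972 members were higher and 214 lower, against 1326 and 1348 of all 41006 transcripts.

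In the fractions no member passed for TAOK2 siRNA by limma in total, nuclear or cytoplasmic RNA, nor for the difference between nuclear and cytoplasmic effects, where 0% of all transcripts were called. That fit held no term for the batch, although deviations of libraries from their group means correlated at 0.417 to 0.706 within batches. At an unadjusted p under 0.05 there were 113 higher and 56 lower in total RNA, 22 higher and 192 lower in nuclear RNA and 122 higher and 175 lower in cytoplasmic RNA. Over all 41169 transcripts that cutoff gave 451 higher and 370 lower in total RNA and 682 and 502 in nuclear RNA. In cytoplasmic RNA it gave 986 and 1092, and both percentages were smaller among members than over all transcripts. The median share in nuclear RNA, 10.7% and 11.3% in the control libraries, was 9.24% and 9.95% after the knockdown, so it was lower in each batch. Members held 7.75% and 8.66% of nuclear TPM in the control libraries and 6.51% and 7.15% after the knockdown. The median change was -0.23 in batch 1 and -0.21 in batch 2, with 5509 and 5235 of 7730 members negative, against 0.0497 and 0.0655 for the 33439 other transcripts. Those others were not alike: over both batches the median was -0.12 for processed transcripts, with 3583 of 5898 negative, -0.0293 for transcripts annotated for nonsense-mediated decay and 0.12 for protein-coding ones, against -0.22 for the members. Members chosen in the whole-cell experiment had a nuclear median of -0.21, with 3143 of 5930 negative in both batches and 954 positive in both. In total RNA the medians were 0.0235 and 0.0637, and over both batches the sign turned, to -0.0404 and -0.0354, without TAOK2 siRNA replicate 2 or control siRNA replicate 1. In cytoplasmic RNA they were -0.0151 and -0.0102. With 2 libraries a group and 1 batch each, these medians are a description of 4 nuclear libraries.

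Over all members the nuclear median change in share odds was -0.22. Among the host gene lists it was lowest for ribosomal protein genes (-0.60, 176 members), respiratory chain genes (-0.49, 81 members) and proteasome and ubiquitin conjugation genes (-0.37, 154 members). It was nearest to 0 for SR protein and cyclin kinases (-0.0712, 45 members), genes of long noncoding RNA (-0.0795, 4 members) and genes known for detained introns (-0.11, 123 members). In level the order turned: the medians were -0.43, -0.47 and -0.46 for these 3 lists, -0.39, -0.29 and -0.32 for ribosomal protein, respiratory chain and proteasome genes, and -0.28 over all members. DDX5-215 held 40.4% and 41.4% of nuclear RNA with control and 32.2% and 33.1% with TAOK2 siRNA, SRSF9-204 33.4% and 36.8% against 24.5% and 31.0%, and RPS16-206 16.6% and 21.3% against 13.1% and 15.7%. Each was lower within its batch, and none passed the test.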

How the data were processed

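Poly(A)-selected RNA was sequenced from A549 cells as paired-end reads of 150 bases per the labels' protocols. The deposited values are TPM per transcript in 1 table for each experiment, which the authors made with kallisto, per the submitters' processing notes, which list GRCh38.p14 as the build. No version of kallisto, transcript index or strand setting is stated in those sources. TPM keep no depth, so the precision of a single value is unknown and rests on the 3 or 2 libraries of a group.

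Transcript types, exons and coordinates came from GENCODE 29 on GRCh38, which held 169797 of the 188753 transcripts listed (90.0%) and 97.0% to 98.3% of TPM. Members were found by the minimums stated above. The members and the host gene lists were chosen with earlier results of these data known. A share was 100 times a transcript's TPM over its gene's TPM. Its log2 odds, with 0.5 TPM added to both terms, were fitted in limma 3.58.1 (R 4.3.3, statmod 1.5.0, trend and robust settings) over all groups of an experiment and all transcript types, and levels as log2(TPM + 1); p-values were adjusted by Benjamini-Hochberg at 0.05. A fold on these scales understates changes at low TPM. Members named were first the 10 largest rises and falls of the main comparisons (5 for the others). Those had a mean of at least 5 TPM, an adjusted p under 0.05 and 1 sign in every batch. Added were the 10 of highest level and, with a mean of at least 5 TPM, of highest share in each experiment. Up to 4 members with the smallest adjusted p for each host gene list, and any member of TAOK2, were named without these 3 conditions. The models were tested on simulated data. Tables and plots used Python 3.11.15, pandas 2.3.3, numpy 2.4.6 and matplotlib 3.10.9.

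The labels name the batches, so the numbers pair the samples. Deviations of libraries from their group means correlated at 0.417 to 0.706 within batches of the fractionation experiment, where each of 12 libraries was closest to its own batch, and at -0.138 to 0.207 between whole-cell libraries of a batch. Alternatives changed the TPM added, the filter, the rest of the gene (coding transcripts only), the groups in the fit, the limma settings and the replicate block, or left out 1 library. A transcript that the naming rule selects among the rises with compound 2 is not reported here.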

Additional observations from a re-analysis of the deposited data

Results flagged for a closer look

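In nuclear RNA the median share change of retained-intron transcripts with TAOK2 siRNA was -0.233 in batch 1 and -0.2139 in batch 2, while in total RNA it was 0.0235 in batch 1 and 0.0637 in batch 2. The signs were opposite in every batch, and the difference between nuclear and total RNA was not tested. The total RNA median over both batches turned sign without 1 library, to -0.0404 without TAOK2 siRNA replicate 2 and -0.0354 without control siRNA replicate 1.

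The effects of compound 2 and of TAOK2 siRNA, each against its own control, stood apart for the 3 members called with TAOK2 siRNA. These members were chosen by the knockdown effect, which is part of the difference, so the values are a description and no test. The difference in log2 odds was 5.671 for NHLRC2-202, of opposite sign in the 2 treatments. It was -2.039 for TAOK2-206 and -1.347 for CCDC43-205; for compound 2 alone neither passed in limma (adjusted p = 0.399 and 0.341).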

How the results depend on the processing

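The 134 results for named members were recomputed under 1762 alternatives: 1720 kept direction and side of the threshold, 40 lost the call and 2 reversed. Against coding transcripts only, the 2 reversals were CCNL1-213 with compound 2 (0.29, adjusted p = 0.397) and CDK10-209 in nuclear RNA (0.82, adjusted p = 0.229). TPM hold no depth, 2 or 3 libraries a group limit the precision, and the cause of the changes below was not tested.

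With 0.1 TPM added, the median change was -0.22 for compound 2, -0.31 for compound 2 minus the knockdown effect, 3.29 and 3.11 for nuclear minus cytoplasmic RNA with control and TAOK2 siRNA, -0.25 for the knockdown in nuclear and -0.12 in cytoplasmic RNA, and -0.13 for the difference of those effects. With 1 TPM added these were -0.0313 for compound 2 (1265 members higher and 1209 lower, so that rises outnumbered falls), -0.10 for compound 2 minus the knockdown effect, 1.49 and 1.27 for nuclear minus cytoplasmic RNA, -0.20 for the nuclear and 0.0051 for the cytoplasmic knockdown, and 8 members passed for the knockdown in whole cells. A level pseudocount of 0.1 TPM gave 2 calls for the cytoplasmic knockdown.

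With a minimum of 5 TPM, fewer members were tested. Compound 2 then gave 427 calls and a median of -0.0101, with 120 higher and 61 lower for members that only end in an intron and 33 and 85 for those that only begin in one. Compound 2 minus the knockdown effect gave 311 and -0.0519, control siRNA minus DMSO 1 call and -0.0148, and nuclear minus cytoplasmic RNA 994 and 2.24 with control and 958 and 2.20 with TAOK2 siRNA. Knockdown medians were 0.0095 in total, -0.19 in nuclear and -0.0926 in cytoplasmic RNA, and -0.11 for the difference of the last 2. With no filter, 12 members passed for the knockdown in whole cells and 1 for control siRNA minus DMSO.

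Against coding transcripts only, medians were 2.69 and 2.33 for nuclear minus cytoplasmic RNA, -0.36 for the nuclear and -0.0348 for the cytoplasmic knockdown, and -0.35 for their difference. For the knockdown in whole cells, the replicate block left 1 call, only the groups compared 0, and limma without trend and robust settings 6; nuclear minus cytoplasmic RNA with TAOK2 siRNA gave 2821 with only the groups compared. With the block 2538 members passed for compound 2, 1860 for compound 2 minus the knockdown effect, and 5261 and 4930 for nuclear minus cytoplasmic RNA with control and TAOK2 siRNA. It moved none of these counts by over 1.5 times and, among named members, ended the knockdown calls of NHLRC2-202 (adjusted p = 0.0609) and CCDC43-205 (adjusted p = 0.0881) and no other call. Members chosen in the other experiment, an alternative chosen after seeing the data, gave 410 higher that only begin in an intron.

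Leaving out 1 library gave medians of -0.14 to -0.0519 for compound 2 (the last without compound 2 replicate 3), 0.0451 to 0.11 for the knockdown in whole cells (the first without TAOK2 siRNA replicate 2), -0.23 to -0.14 for compound 2 minus the knockdown effect, -0.30 to -0.15 for the knockdown in nuclear, -0.0338 to -0.0016 in cytoplasmic and -0.0404 to 0.16 in total RNA, and -0.29 to -0.13 for the difference of the first 2 fractions. Calls were 1 to 2 for the knockdown in whole cells, 0 to 20 in cytoplasmic RNA and 0 to 3 for that difference.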
